A study of Sus scrofa with 12 samples.

Results

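The genes described here carry out or control the oxidation of fatty acids in mitochondria and the choice between fat and glucose as fuel: CPT1A, CPT2, ACADVL, ACADM, HADHA, HADHB, PPARA and PDK4. They were listed by name as the machinery that a change from milk fat to solid feed could affect, by a rule that uses no expression value, although earlier results of these data were known when the list was drawn up. Of the 8 names, 6 were found among the 17049 gene names of the deposited expression table. CPT1A and ACADVL were not listed there by symbol, and both were found by their Ensembl identifiers (ENSSSCG00000012880 and ENSSSCG00000017947). Values of loci sharing a gene name were summed. Results are given for all 8 genes, and counts for the 6 matched by symbol stand beside them.

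Long-chain fatty acids are activated to acyl-CoA in the cytosol and enter the mitochondrion as carnitine esters. CPT1A makes the ester at the outer membrane and is the controlled step of the pathway, and CPT2 turns it back into acyl-CoA at the inner membrane. ACADVL and ACADM carry out the first dehydrogenation of very-long-chain and medium-chain acyl-CoA. HADHA and HADHB are the alpha and beta subunits of the mitochondrial trifunctional protein, which completes the cycle for long chains. PPARA is a nuclear receptor that binds fatty acids and switches on many of these genes, and PDK4 is a kinase that inactivates pyruvate dehydrogenase and so spares glucose. Sow milk is rich in fat and solid feed in carbohydrate, so that weaning is a sudden change of fuel for the enterocyte.

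Jejunum RNA was sequenced from 12 piglets in 4 groups of 3. W_Con are sucking piglets of 21 days of age and PW_Con weaned piglets of 28 days, 7 days after weaning, all from sows on a basal corn and soybean meal diet without resveratrol. W_Res and PW_Res are piglets of the same 2 ages from sows that received 300 mg/kg of resveratrol, a plant polyphenol, in that diet, starting 20 days after breeding and lasting until weaning. The piglets themselves were given no labelled treatment other than weaning, and age and weaning cannot be told apart, because no unweaned piglets of 28 days were sampled. The study's methods describe the control piglets as 1 male per litter, taken from the same litters at both ages. Sucking and weaned control piglets may therefore be littermates, and which libraries share a litter is not known here. Those methods name Yorkshire × Duroc litters moved to a nursing room at weaning, whereas the sample records describe Landrace semen and nursing pens. Expression is given as FPKM, fragments mapped to a gene scaled by its exon length and by the total mapped, which allows levels to be compared between genes per length. The table holds no read counts, so that the number of reads behind a gene is not known from it, and the library totals the study gives for its control piglets were not used here.

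Markers of gut position and of tissue layers differed widely between libraries, also within groups. Between 10323 and 12151 gene names reached 1 FPKM in a library, and the correlation of log2 values between replicates lay between 0.88 and 0.96. FABP6, a bile acid binding protein whose expression is typical of the ileum, ranged from 1.70 to 24110 FPKM, although all samples are labelled jejunum. Sampling position and regulation of these markers by age or weaning cannot be told apart here. It was below 1000 FPKM in 5 libraries (W_Con 3, W_Res 1, W_Res 2, PW_Res 2 and PW_Res 3) and at or above 1231 FPKM in the other 7, among them all 3 PW_Con libraries. The summed FPKM of 7 smooth muscle markers was 1825 in W_Res 1 and 3979 in W_Res 2, against 155 to 670 in the other 10 libraries. The RNA protocol in the records refers to an adipose type, and the summed FPKM of the 5 adipocyte markers matched was 24.05 to 83.1, with the adipokine LEP at 0 in every library. The summed FPKM of 6 mitochondrial mass markers lay between 994 in W_Res 3 and 2402 in PW_Res 3.

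All 8 genes were above 0 in every library, at levels from under 1 to over 170 FPKM. HADHA had the highest mean over the 12 libraries, 143 FPKM, followed by HADHB with 80.1 FPKM and ACADVL with 53.7 FPKM, and each of these 3 stood above the next gene in all 12 libraries. CPT2, CPT1A and ACADM followed with means of 39.9, 36.2 and 36.1 FPKM. CPT2 exceeded CPT1A in 6 of the 12 libraries and CPT1A exceeded ACADM in 5, so that these 3 do not differ beyond their spread. The regulators were far lower, with 6.78 FPKM for PPARA and 3.41 FPKM for PDK4, and PPARA exceeded PDK4 in 9 libraries. HADHA varied least between libraries, with the highest value 1.63 times the lowest. PPARA varied most, with a highest value 23.1 times the lowest, and the corresponding ratio was 15.9 for PDK4.

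**Figure D1:**
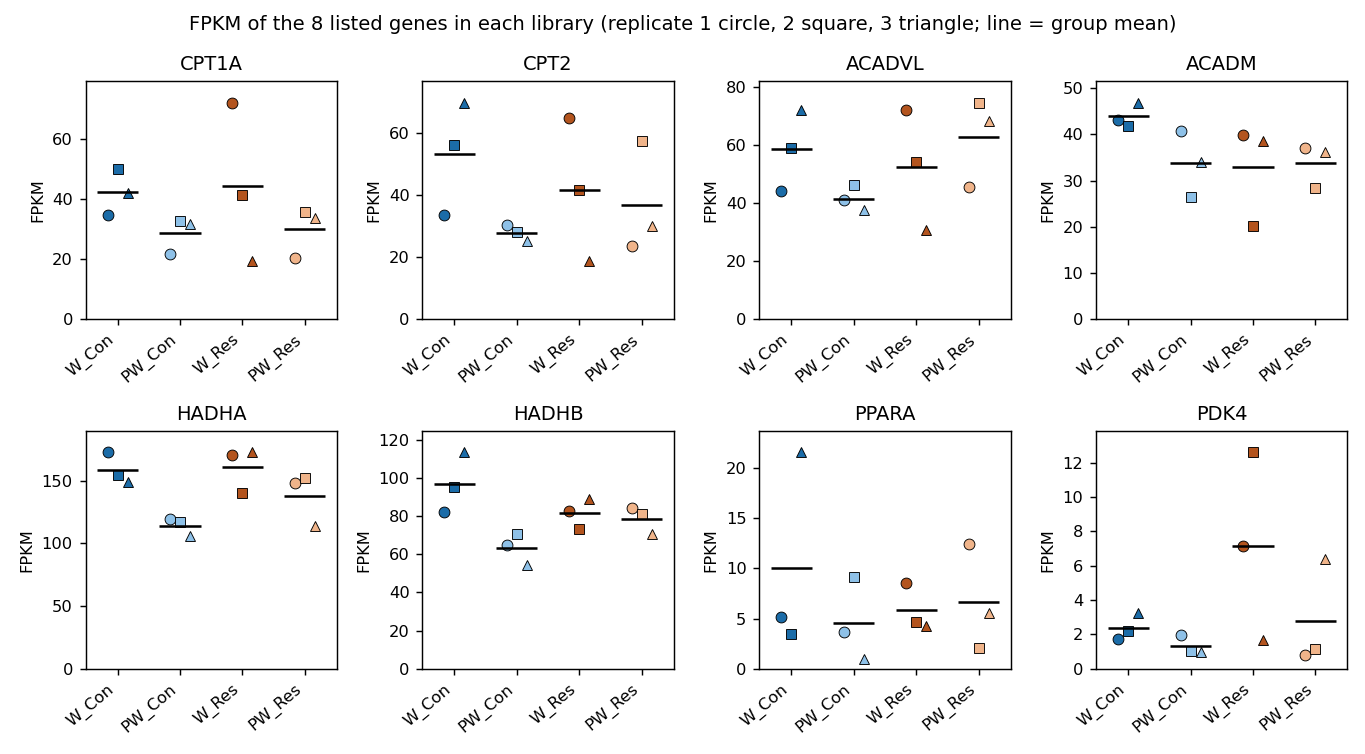
FPKM of the 8 genes (vertical axes, linear and starting at 0) in each of the 12 libraries, by group, with replicates as circles, squares and triangles and the group mean as a line. The 3 PW_Con libraries lie below the 3 W_Con libraries for CPT1A, CPT2, ACADM, HADHA and HADHB, whereas the W_Res and PW_Res libraries overlap for all 8 genes.

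CPT1A, the controlled step of fatty acid entry, was measured at 34.8, 50.1 and 42.1 FPKM in the W_Con libraries and at 21.7, 32.6 and 31.6 FPKM in the PW_Con libraries. The highest weaned value was below the lowest sucking value. P values are unadjusted ones from limma, and adjusted p takes account of all gene names tested. Calls here use P under 0.05 alone, which is looser than the study's standard of P under 0.05 together with a log2 fold change beyond 1. The log2 fold change was -0.55 (SE 0.22, adjusted p = 0.258), or 1.47-fold lower in weaned piglets. In the resveratrol litters CPT1A was at 72.1, 41.3 and 19.2 FPKM in W_Res and at 20.2, 35.8 and 33.6 FPKM in PW_Res. The W_Res libraries spanned the whole range of the PW_Res libraries, and the log2 fold change was -0.40 (SE 0.47, adjusted p = 0.725). The control value no longer had P under 0.05 without W_Con 2 (-0.43), without W_Con 3 (-0.55) or without PW_Con 1 (-0.37). Without W_Con 3 the value itself was no nearer to 0, and each omission also leaves fewer libraries in the fit. In bulk tissue, fewer cells of a type and less RNA per cell cannot be told apart.

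CPT2, the inner-membrane partner, showed the largest control difference among the enzymes. It was at 33.6, 56.1 and 69.9 FPKM in W_Con and at 30.5, 28.0 and 25.1 FPKM in PW_Con, without overlap and with a mean ± SD of 53.2 ± 18.3 against 27.8 ± 2.67 FPKM (n = 3 each). The log2 fold change was -0.85 (SE 0.27, adjusted p = 0.190), or 1.80-fold lower. In the resveratrol litters the values were 64.8, 41.7 and 18.9 FPKM in W_Res and 23.5, 57.5 and 30.0 FPKM in PW_Res, with a log2 fold change of -0.11 (SE 0.49, adjusted p = 0.935). CPT2 was spread over 3 loci of the assembly, and the main locus carried 85.5% of its FPKM. The study also measured CPT2 by quantitative PCR, which is not analysed here, and the primers are shown because they define the transcript the study meant by this name.
CPT2 forward primer: ggctttgaccgacacttgtt
CPT2 reverse primer: ctggtggacaggatgttgtg

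The acyl-CoA dehydrogenases were lower after weaning in control litters by smaller amounts that did not reach P under 0.05. ACADVL was at 44.3, 59.0 and 71.9 FPKM in W_Con and at 40.9, 46.0 and 37.5 FPKM in PW_Con, and these ranges overlap (log2 fold change -0.46, SE 0.21, adjusted p = 0.306). With resveratrol ACADVL was at 72.1, 54.0 and 30.7 FPKM in W_Res and at 45.4, 74.5 and 68.0 FPKM in PW_Res, with the highest value of all libraries in PW_Res 2 (log2 fold change 0.31, SE 0.35, adjusted p = 0.723). ACADM was at 43.2, 41.8 and 46.9 FPKM in W_Con and at 40.7, 26.5 and 34.0 FPKM in PW_Con. Its control groups did not overlap, and the log2 fold change was -0.39 (SE 0.19, adjusted p = 0.332). Among resveratrol litters ACADM was at 39.9, 20.1 and 38.6 FPKM in W_Res and at 37.0, 28.5 and 36.1 FPKM in PW_Res, a log2 fold change of 0.10 (SE 0.30, adjusted p = 0.909). Both reached P under 0.05 in control litters when 1 library was left out, ACADVL without W_Con 1 (-0.64) and ACADM without PW_Con 1 (-0.53). Other omissions brought them nearer to 0, ACADVL to -0.30 without W_Con 3 and ACADM to -0.23 without PW_Con 2. With a score of distal minus proximal gut markers in the model the control value of ACADVL was -0.0038.

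The subunits of the trifunctional protein had the tightest values. HADHA was at 173, 154 and 149 FPKM in W_Con and at 119, 117 and 106 FPKM in PW_Con, with a clear gap between the groups. The log2 fold change was -0.47 (SE 0.15, adjusted p = 0.191), or 1.39-fold lower, and without W_Con 1 it was -0.41 and no longer at P under 0.05. HADHA in resveratrol litters was at 170, 140 and 173 FPKM in W_Res and at 148, 152 and 114 FPKM in PW_Res (log2 fold change -0.23, SE 0.23, adjusted p = 0.682). That value was -0.097 without PW_Res 3 and -0.0012 under median-of-ratios scaling. HADHB was at 82.1, 95.3 and 113 FPKM in W_Con and at 64.9, 70.9 and 54.1 FPKM in PW_Con, again without overlap. Its log2 fold change was -0.60 (SE 0.19, adjusted p = 0.184), or 1.52-fold lower, and it stayed at P under 0.05 whichever control library was left out. With resveratrol HADHB was at 82.9, 73.2 and 88.8 FPKM before and at 84.1, 81.3 and 70.5 FPKM after weaning (log2 fold change -0.05, SE 0.20, adjusted p = 0.924). The ratio of HADHA to HADHB lay between 1.31 and 2.10 in the 12 libraries.

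The regulators scattered most. PPARA was at 5.12, 3.49 and 21.6 FPKM in W_Con, where W_Con 3 stood far above the others, and at 3.69, 9.10 and 0.932 FPKM in PW_Con. The log2 fold change was -0.92 with an SE of 0.75 (adjusted p = 0.572). It was -0.22 without W_Con 3, -0.31 without PW_Con 3, -1.38 without W_Con 2 and -1.50 without PW_Con 2. For resveratrol litters PPARA was at 8.56, 4.70 and 4.28 FPKM in W_Res and at 12.4, 2.02 and 5.51 FPKM in PW_Res (log2 fold change -0.04, SE 0.53, adjusted p = 0.978). PDK4 was at 1.74, 2.18 and 3.27 FPKM in W_Con and at 1.99, 1.01 and 0.959 FPKM in PW_Con (log2 fold change -0.55, SE 0.26, adjusted p = 0.322). In the resveratrol litters it was at 7.15, 12.6 and 1.70 FPKM in W_Res and at 0.790, 1.13 and 6.36 FPKM in PW_Res. The 2 highest sucking values there are those of the libraries with the highest smooth muscle sums, and the part of that in the result was not tested. The log2 fold change of PDK4 in resveratrol litters was -1.14 (SE 0.71, adjusted p = 0.508). It was -1.79 without W_Res 3 and -1.78 without PW_Res 3, both with P under 0.05, and 0.17 without W_Res 1 and W_Res 2 together. It was -0.63 without W_Res 2. The control value of PDK4 was -0.75 without PW_Con 1, with P under 0.05, and -0.84 with a pseudocount of 0.1, but -0.33 with a villus marker score and -0.13 with the distal minus proximal score in the model. Fold changes were computed on log2(FPKM + 1), which understates changes of genes as low as PDK4.

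In control litters, then, all 8 genes had lower values after weaning, and CPT1A, CPT2, HADHA and HADHB reached P under 0.05. Of the 12611 gene names tested in that comparison, 8.38% reached P under 0.05 with lower values in weaned piglets. For the 6 genes matched by symbol the count was 3 of 6. Groups did not overlap for 5 of the 8 genes, all lower, against 12.7% of all gene names. The median log2 fold change of the 8 genes was -0.55, beside -0.02 over all gene names, of which 51.8% were lower after weaning. In this fit none of the 8 met that joint standard, which 3.31% of gene names met. After adjustment over all gene names (limma with Benjamini-Hochberg adjustment) 0 of the 8 were below 0.05, as were 0 of the 12611 gene names, although 2236 had an unadjusted P under 0.05.

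Markers of gut position differed between the control groups too, and CPT1A, CPT2 and HADHB lost their calls when either of 2 marker scores entered the model. All 3 PW_Con libraries had FABP6 between 6518 and 9621 FPKM, whereas W_Con had 8055, 1231 and 9.10 FPKM. With a score of distal minus proximal markers in the model, the control log2 fold changes were -0.20 for CPT2, -0.42 for CPT1A and -0.28 for HADHB, none at P under 0.05, while HADHA kept P under 0.05 as the single gene of the 8. Over all gene names 1457 reached P under 0.05 in that model, against 2236 without a score. With a score of 8 villus markers in the model 0 of the 8 reached P under 0.05, and the values were -0.59 for CPT2, -0.58 for CPT1A, -0.41 for HADHA and -0.36 for HADHB. The number of gene names at P under 0.05 was 1210 in that model, and CPT1A lost its call with a fold change no nearer to 0 than before. The villus score includes FABP2, which was itself lower after weaning.

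In the resveratrol litters 6 of the 8 genes had lower and 2 (ACADM and ACADVL) higher values after weaning, beside 65.9% of all gene names with lower values. The groups overlapped for all 8 and lay apart for 21.8% of all gene names. None reached P under 0.05, beside 13.3% of the 13013 gene names tested (10.8% lower and 2.54% higher), and the lowest adjusted p was 0.508. The median of the 8 log2 fold changes was -0.08, beside -0.16 over all gene names. The 3 W_Res libraries were less alike (r of 0.88 to 0.91 over gene names) than the W_Con libraries (0.92 to 0.95). W_Res 1 had the highest CPT1A of all libraries and W_Res 3 the lowest CPT1A, CPT2 and ACADVL, and W_Res 3 was also the library with the lowest mitochondrial marker sum. Without W_Res 3, CPT1A reached P under 0.05 with a log2 fold change of -0.89 (adjusted p = 0.318). Without W_Res 1 the sign of CPT1A turned (0.036), as did that of CPT2 (0.28).

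Over both litter sets, with 6 piglets at each age, all 8 genes again had lower values after weaning, as did 63.4% of all gene names. HADHA reached a log2 fold change of -0.35 (SE 0.12, adjusted p = 0.186) and HADHB one of -0.33 (SE 0.13, adjusted p = 0.217). These were 2 of 8 genes at P under 0.05 with lower values, beside 12.5% of the 12886 gene names. The log2 fold changes of the others were -0.48 for CPT1A, -0.48 for CPT2, -0.84 for PDK4 (adjusted p = 0.298), -0.48 for PPARA, -0.15 for ACADM and -0.08 for ACADVL. The median of the 8 was -0.41, beside -0.10 over all gene names. When a library was left out PPARA ranged from -0.77 (without PW_Con 2) to -0.13 (without W_Con 3) and ACADM from -0.30 (without W_Res 2) to -0.065 (without W_Res 1). With the distal minus proximal score in the model CPT1A was at -0.19, CPT2 at -0.089 and PDK4 at -0.24. Without W_Res 1 and W_Res 2 together CPT1A was at 0.0076, CPT2 at -0.011 and PDK4 at -0.19. Since these libraries include those of the control comparison, the 2 results share samples. None of the 8 passed an adjusted p of 0.05, whereas 10 gene names did (0.0776%).

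How many of the genes were called over both litter sets changed with single libraries, most of all W_Res 3. Without it, 5 of the 8 reached P under 0.05, with CPT1A at -0.72, CPT2 at -0.72 and PDK4 at -1.17, and 2484 gene names did so, against 2454 with all libraries. Without W_Res 1 the values of CPT1A and CPT2 were -0.26 and -0.29, and that of PDK4 was -0.59 without W_Res 2, all without a call. CPT2 was also at P under 0.05 without PW_Res 2 (-0.66), and PDK4 without PW_Res 3 (-1.16). HADHB lost its call without W_Con 3 (-0.27), without PW_Con 3 (-0.27) and without PW_Res 3 (-0.29), while HADHA kept P under 0.05 whichever library was left out. Rescaling the libraries by the median of ratios, which moved the median over all gene names from -0.10 to -0.01, left 0 of the 8 at P under 0.05, with HADHA at -0.23 and HADHB at -0.21.

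**Figure D2:**
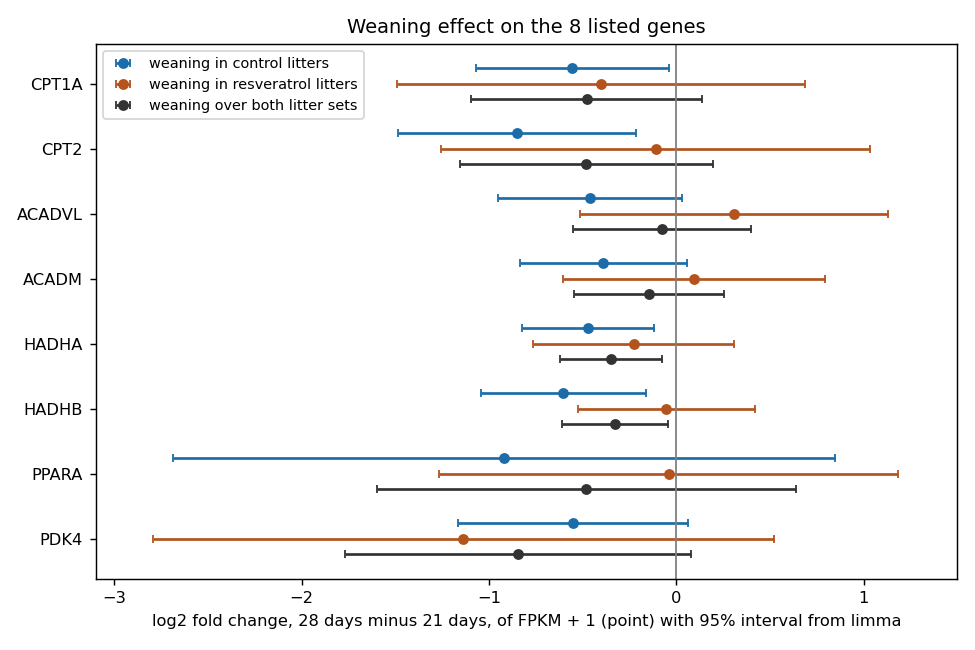
Log2 fold change of FPKM + 1 after weaning (horizontal axis, 28 days minus 21 days) with its 95% interval from limma for each of the 8 genes, in control litters (blue), resveratrol litters (orange) and over both (black). The 8 control values all lie below 0, and the intervals over both litter sets exclude 0 for HADHA and HADHB.

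Whether weaning acted differently in the 2 litter sets was tested as an interaction. None of the 8 reached P under 0.05, beside 13.7% of the 12886 gene names (3.31% above and 10.4% below 0). The closest was HADHB, whose weaning effect was 0.55 higher on the log2 scale in resveratrol litters (95% interval -0.01 to 1.11, adjusted p = 0.373), followed by ACADVL with 0.77 (95% interval -0.18 to 1.72, adjusted p = 0.445). Of the 8 differences 7 were above 0, whereas 60.9% of all gene names were below 0, and PDK4 was at -0.59. The interval for CPT2 ran from -0.61 to 2.09, so that neither equal effects nor a difference of several-fold can be told apart at this number of animals. HADHB passed P under 0.05 without W_Con 1 (0.66), without W_Res 3 (0.61), without PW_Con 2 (0.63) and without PW_Res 3 (0.63), and ACADVL without W_Res 1 (1.04) and without PW_Res 1 (0.98). Other settings lowered them, HADHB to 0.43 without W_Con 3 and 0.24 with the Ballgown covariate, which is the library size term of the study's software, and ACADVL to 0.43 without W_Res 3 and 0.17 with a mitochondrial marker score in the model.

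Maternal resveratrol was compared with the control diet at each age. At 21 days none of the 8 genes reached P under 0.05, beside 13.3% of the 13186 gene names tested. PDK4 was higher by 1.00 on the log2 scale (SE 0.55, adjusted p = 0.455), and 1.66 higher without W_Res 3, with P under 0.05 (adjusted p = 0.183), but 0.49 higher without W_Res 2 and at -0.31 without W_Res 1 and W_Res 2 together. ACADM was lower, with no W_Res value above the lowest W_Con value (log2 fold change -0.47, SE 0.29, adjusted p = 0.49), as for 7.18% of gene names. The value of ACADM was -0.16 without W_Res 2 and -0.082 with the Ballgown covariate, and -0.64 without W_Res 1. At 28 days the log2 fold changes of all 8 genes were above 0, between 0.02 for ACADM and 0.56 for ACADVL, whereas 58.8% of gene names were below 0. ACADVL alone reached P under 0.05 (SE 0.23, adjusted p = 0.477), with 45.4 to 74.5 FPKM in PW_Res against 37.5 to 46.0 FPKM in PW_Con and overlapping groups. Among 12380 gene names, 3.42% were higher at P under 0.05 with resveratrol at this age. The ACADVL call was lost without any 1 of PW_Con 1 (0.55), PW_Con 2 (0.63), PW_Con 3 (0.49), PW_Res 2 (0.42) and PW_Res 3 (0.48). With the Ballgown covariate the call was also lost and the value turned to -0.0061. PW_Res 2 and PW_Res 3 are also libraries with FABP6 below 5 FPKM, whereas all PW_Con libraries had at least 6518 FPKM, and the part of that in the result was not tested.

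FABP6 sets the libraries in a different order from age or diet, and the 8 genes related to it in different ways. ACADVL was at 54.0 to 74.5 FPKM in the 5 libraries with FABP6 below 1000 FPKM and at 30.7 to 59.0 FPKM in the other 7. CPT2 was at 30.0 to 69.9 FPKM against 18.9 to 56.1 FPKM, with medians of 57.5 and 28.0 FPKM. CPT1A was at 33.6 to 72.1 FPKM against 19.2 to 50.1 FPKM. PDK4 had medians of 6.36 and 1.70 FPKM, with ranges of 1.13 to 12.6 and 0.790 to 2.18 FPKM, and those of PPARA were 5.51 and 4.28 FPKM. ACADM went the other way by a small amount, with medians of 36.1 and 38.6 FPKM. HADHA showed no such order, with medians of 149 and 148 FPKM, and those of HADHB were 81.3 and 82.1 FPKM. These values are a description of 12 libraries, and no test was made on a split that comes from the data.

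**Figure D3:**
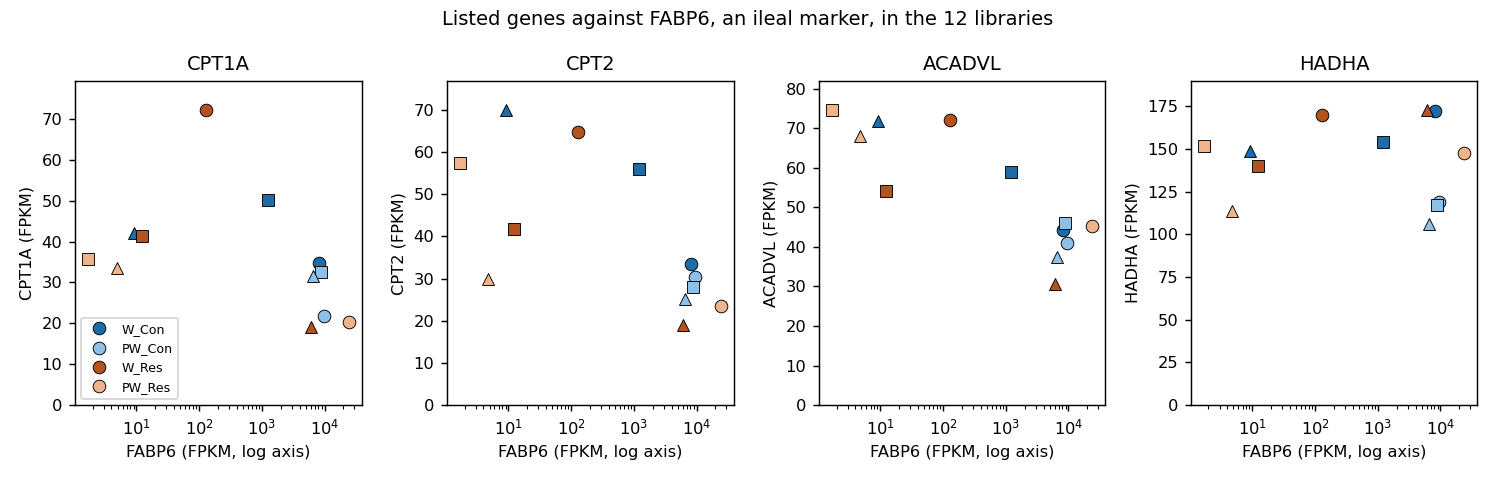
FPKM of CPT1A, CPT2, ACADVL and HADHA (vertical axes, linear from 0) against FPKM of FABP6 (horizontal axis, log scale) in the 12 libraries, coloured by group and shaped by replicate. ACADVL is at or above 54.0 FPKM in the 5 libraries with FABP6 below 1000 FPKM, and HADHA spans similar ranges on both sides.

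Across the 12 libraries CPT1A, CPT2 and ACADVL varied together, as did HADHA and HADHB. CPT1A and CPT2 had a Pearson r of 0.83 on log2(FPKM + 1), CPT2 and ACADVL one of 0.85, and CPT1A and ACADVL one of 0.73. HADHA and HADHB, which lie next to each other in the RefSeq gene table, had an r of 0.74. ACADM had an r of -0.02 with CPT1A and with ACADVL. PDK4 followed CPT1A with 0.55, and PPARA had its highest r, 0.64, with HADHB. These correlations are descriptions over 12 libraries that share age, diet and tissue make-up.

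Other gene names followed the same profile. Among 6295 gene names with a mean of at least 5 FPKM, the mean standardised profile of the 8 genes was most like that of ABCD3, which carries fatty acids into peroxisomes, with an r of 0.93 over 12 libraries. ETFDH, which passes electrons from acyl-CoA dehydrogenases to the respiratory chain, stood seventh with 0.87. The rest of the first 10 were ENSSSCG00000021681 (0.89), MOBKL3 (0.89), RAB30 (0.89), POLR2M (0.88), INTS10 (0.87), RAB2A (0.87), MKKS (0.86) and BET1 (0.86). For CPT1A alone the likest gene name was ENSSSCG00000012881 (r = 0.95), whose assembled locus is numbered between the loci of CPT1A, so that reads of 1 transcript may be divided between them. Its FPKM was 38.6, 49.3 and 50.9 in W_Con, 22.4, 34.3 and 24.1 in PW_Con, 89.7, 44.6 and 18.2 in W_Res and 24.3, 32.0 and 41.1 in PW_Res. ACSL1, which activates long-chain fatty acids to acyl-CoA, followed CPT1A with an r of 0.90. The likest gene names were ENOPH1 (0.90) for CPT2, RANBP2 (0.90) for ACADM, ENSSSCG00000020972 (0.98) for ACADVL, ZMYND11 (0.91) for HADHA, ENSSSCG00000021681 (0.89) for HADHB, GOLGA3 (0.80) for PPARA and PEX7 (0.90) for PDK4.

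Of the genes of ketone body handling described here, none passed the test for weaning over both litter sets. BDH2, a cytosolic hydroxybutyrate dehydrogenase, was the highest of the 4 ketone genes described with a mean of 36.5 FPKM, and BDH1, its mitochondrial counterpart, had 14.4 FPKM. ACAT1, the thiolase on both the forming and the using route, had a mean of 29.0 FPKM, and OXCT1, the enzyme with which tissues use ketone bodies, 10.7 FPKM. Over both litter sets 0 of these 4 genes reached P under 0.05 in limma, beside 12.5% of all gene names lower and 6.57% higher at that limit, with a median log2 fold change of -0.17 and values from -0.27 for BDH1 to 0.11 for BDH2. BDH1 was at 15.5, 21.7 and 22.0 FPKM in W_Res and at 15.5, 12.2 and 12.0 FPKM in PW_Res. The lowest W_Res value was almost the same as the highest PW_Res value. In resveratrol litters its log2 fold change had P under 0.05 (-0.54, adjusted p = 0.370). In control litters it was at 13.8, 10.1 and 13.3 FPKM in W_Con and 11.2, 14.6 and 11.3 FPKM in PW_Con, and these groups overlapped.

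A wider set of 78 names covered the rest of the pathway by role, and 65 of them were matched, 63 high enough to be tested. Over both litter sets 13 had P under 0.05 with lower and 4 with higher values after weaning. That is 13 of 63 beside the 12.5% of all gene names with lower values, and 4 of 63 beside 6.57% with higher values. The median over the 63 was -0.18, and none had an adjusted p under 0.05.

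Peroxisomal oxidation, which shortens very long chains, held genes with lower values after weaning. ABCD3 had a log2 fold change of -0.83 over both sets (adjusted p = 0.153). It was at 17.8, 27.1 and 49.0 FPKM in W_Con and 15.7, 8.01 and 9.08 in PW_Con, a log2 fold change of -1.37. In resveratrol litters it was at 31.2, 18.3 and 14.6 FPKM in W_Res and 14.0, 18.3 and 17.1 in PW_Res, with overlap and a log2 fold change of -0.29 (adjusted p = 0.682). HSD17B4, the bifunctional enzyme of that route, was at -0.58 over both sets (adjusted p = 0.184), with -0.94 in control and -0.21 in resveratrol litters. Of the 8 tested peroxisomal genes 7 had lower values and these 2 reached P under 0.05, with a median of -0.40. Among all gene names 63.4% were lower and 12.5% were lower at P under 0.05. ACAA1, the thiolase and the highest of this list with a mean of 34.1 FPKM, had a log2 fold change of -0.19 (adjusted p = 0.589).

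In the carnitine shuttle, 3 of 5 tested genes had P under 0.05 with lower values over both sets, beside 12.5% of all gene names. CROT, which makes carnitine esters in the peroxisome, was at 15.0, 12.9 and 12.5 FPKM in W_Con and 18.1, 11.8 and 11.3 in W_Res, against 11.3, 9.22 and 8.98 in PW_Con and 10.3, 7.05 and 7.49 in PW_Res. Weaned values were below sucking values in each litter set, and the lowest sucking value, in W_Res 3, also exceeded the highest weaned one, in PW_Con 1, by 11.30 to 11.25 FPKM (log2 fold change -0.54, SE 0.15, adjusted p = 0.126). Non-overlap of all 6 against 6 libraries with lower weaned values was seen in 0.916% of gene names. SLC25A20, the carnitine-acylcarnitine translocase, was at -0.73 (SE 0.25, adjusted p = 0.175) and SLC22A5, the plasma membrane carnitine carrier, at -0.71 (SE 0.23, adjusted p = 0.163). CRAT, the short-chain transferase and the highest of the list with a mean of 44.2 FPKM, was at 0.05 (adjusted p = 0.94).

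Among 12 other genes of mitochondrial beta-oxidation, values went both ways. ACADL, the long-chain dehydrogenase, was lower by a log2 fold change of -0.78 (SE 0.22, adjusted p = 0.131), ACADSB, which acts on short branched chains, by -0.68 (adjusted p = 0.257, with P under 0.05 kept in 5 of 14 other settings and 5 of 12 omissions of a library) and ETFDH by -0.38 (adjusted p = 0.169). ACADS, the short-chain dehydrogenase, was higher by 0.34 (SE 0.12, adjusted p = 0.175), with 38.5 to 43.0 FPKM in W_Con and 46.8 to 59.4 FPKM in PW_Con, and 37.8 to 47.0 FPKM in W_Res and 49.4 to 58.8 FPKM in PW_Res. HADH, the short-chain hydroxyacyl-CoA dehydrogenase and the highest of this list with a mean of 164 FPKM, was at 181, 198 and 211 FPKM in W_Con and 95.5, 145 and 132 FPKM in PW_Con, but at 99.6, 199 and 133 FPKM in W_Res and 167, 202 and 210 FPKM in PW_Res. Its log2 fold change over both sets was -0.10 (adjusted p = 0.792), and the list's median was -0.08. ACSL3 was the highest of the 4 acyl-CoA synthetases matched, not of all in the family, with a mean of 62.1 FPKM. It was lower by -1.15 (SE 0.35, adjusted p = 0.148) over both sets. It was at 56.3, 133 and 116 FPKM in W_Con and 52.3, 30.4 and 11.6 FPKM in PW_Con, a log2 fold change of -1.81. In resveratrol litters it was at 57.4, 45.7 and 103 FPKM in W_Res and 51.9, 35.2 and 52.1 FPKM in PW_Res, with overlap and a log2 fold change of -0.49 (adjusted p = 0.545).

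A list around pyruvate dehydrogenase, the complex on which PDK4 acts, held 9 tested genes, namely subunits of the complex, the related kinases, the phosphatase gene PDP1 and the pyruvate carrier gene MPC2. All 9 had lower values over both sets, beside 63.4% of all gene names, with a median of -0.24 beside -0.10. DLAT and PDHX, both at -0.02, were close to no change. In control litters 8 of the 9 were lower, beside 51.8% of all gene names. In resveratrol litters 6 were lower, beside 65.9%, and 3 were higher, namely MPC2 (0.41), PDHX (0.40) and DLAT (0.17). PDHA1, the catalytic alpha subunit that the kinases phosphorylate, was at 27.2, 59.3 and 36.2 FPKM in W_Con and 16.6, 17.5 and 17.0 FPKM in PW_Con, and at 28.1, 28.3 and 26.5 FPKM in W_Res and 19.2, 21.0 and 27.5 FPKM in PW_Res (log2 fold change -0.72, SE 0.17, adjusted p = 0.0889). PDK3, a kinase of the same family as PDK4, was at -0.37 (adjusted p = 0.218), and PDHB, the beta subunit with a mean of 46.4 FPKM, at -0.20 (adjusted p = 0.51). Of 5 tested genes that set malonyl-CoA, the inhibitor of CPT1A, 1 was higher and 1 lower at P under 0.05 over both sets, beside 6.57% and 12.5% of all gene names. FASN, which consumes malonyl-CoA in fatty acid synthesis, was at 11.7, 5.89 and 7.03 FPKM in W_Con and 17.4, 17.3 and 20.9 FPKM in PW_Con, and was higher by 0.91 over both sets (SE 0.26, adjusted p = 0.131). In resveratrol litters it was at 18.3, 11.6 and 5.44 FPKM in W_Res and 14.4, 16.3 and 23.5 FPKM in PW_Res, with overlap and a log2 fold change of 0.69 (adjusted p = 0.489). ACACB, the mitochondrial acetyl-CoA carboxylase, was low, at 0.755 to 3.64 FPKM in all libraries, with a log2 fold change of -0.30 (adjusted p = 0.24) that joins 0.17 in control litters and -0.77 in resveratrol litters. The remaining 3 genes of the list lay between -0.07 and 0.17.

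The regulators and other targets of PPARA showed no common direction. Of the 9 tested regulators 1 reached P under 0.05, PPARG, the adipogenic receptor of the same family, with 0.80 (SE 0.30, adjusted p = 0.203), and 6.57% of all gene names were higher at that limit. Its values were 2.10, 2.10 and 4.16 FPKM in W_Con and 4.93, 1.27 and 2.56 FPKM in PW_Con, but 3.98, 1.28 and 1.80 FPKM in W_Res and 4.97, 11.6 and 11.2 FPKM in PW_Res. CREB3L3, a membrane-bound transcription factor and the highest regulator with a mean of 187 FPKM, ranged from 73.7 to 443 FPKM (log2 fold change -0.25, adjusted p = 0.756). Among 8 tested targets 1 was lower and 1 higher at P under 0.05, beside 12.5% and 6.57% of all gene names. FABP2, the intestinal fatty acid binding protein, was lower by -1.31 over both sets (SE 0.41, adjusted p = 0.151). It was at 260.4, 759 and 419 FPKM in W_Con and 131, 106 and 60.3 FPKM in PW_Con, a log2 fold change of -2.20. In resveratrol litters FABP2 was at 454, 96.2 and 299 FPKM in W_Res and 303, 121 and 146 FPKM in PW_Res, with overlap and a log2 fold change of -0.43 (adjusted p = 0.778). FABP1, the liver-type binding protein, was by far the highest with a mean of 4840 FPKM, at 3311, 11019 and 12407 FPKM in W_Con and 2306, 2762 and 891 FPKM in PW_Con (log2 fold change over both sets -0.96, SE 0.48, adjusted p = 0.303). In resveratrol litters FABP1 was at 5775, 3863 and 1809 FPKM in W_Res and 2031, 3577 and 8325 FPKM in PW_Res. TXNIP, an inhibitor of glucose uptake, was higher by 0.35 (adjusted p = 0.24). FABP2 and FABP1 also serve here as markers of villus enterocytes and of the proximal gut.

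**Figure D4:**
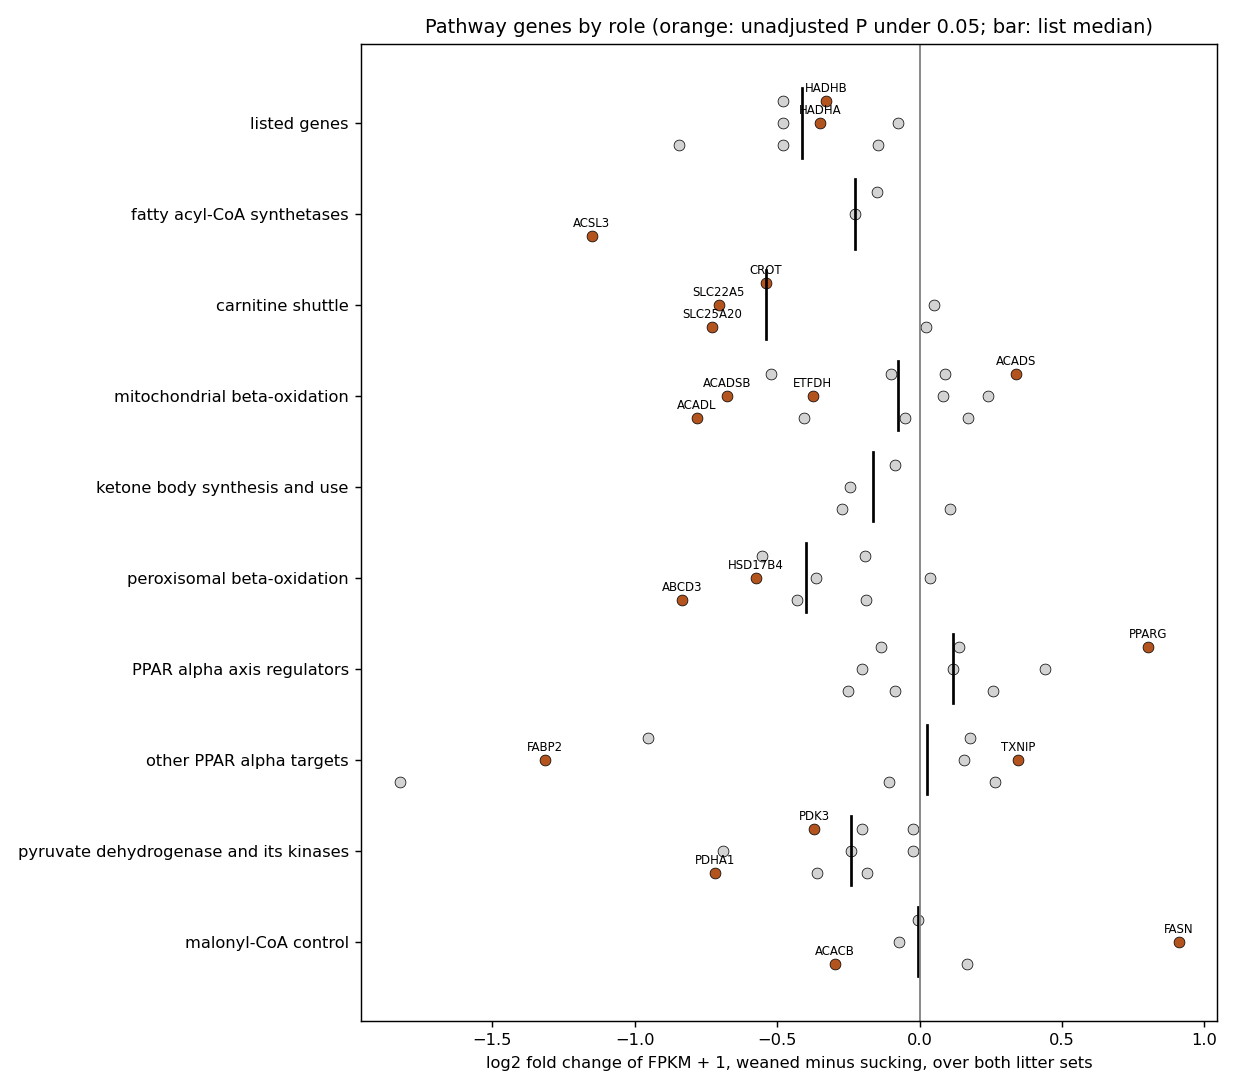
Log2 fold change of FPKM + 1 after weaning over both litter sets (horizontal axis) for the 8 genes and the 63 tested genes of the wider pathway, in rows by role, with those at P under 0.05 in orange and named and the median of each row as a bar. Medians run from -0.54 for the carnitine shuttle to 0.12 for the PPAR alpha regulators.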

How the data were processed

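RNA of 12 jejunum samples was sequenced as poly(A)-selected, paired-end libraries on an Illumina HiSeq instrument. Per the study's methods, reads were aligned to the Ensembl pig genome with TopHat, whereas the submitters' processing notes name Bowtie 0.12.2, HISAT2 2.0 and StringTie 1.3.0 and the build Sscrofa10.2 beside a mouse build, whose role is not given in the sources used here. FPKM values were estimated by the authors with StringTie and Ballgown, and the deposited table gives FPKM for 41264 loci, of which 17650 (42.8%) have no gene name and were left out of the tests. Between 5.48% and 8.47% of a library's total FPKM lay in such loci. Whether the library kit keeps strand is not stated, so that reads of overlapping and antisense genes may be mixed. No counts were used, and read depth is not in the table. Read totals that the study gives for the control libraries were not used.

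Loci with the same gene name were summed (17049 gene names), and 6232 gene names are Ensembl identifiers, of which 2139 could be paired with a symbol. Of 78 wider pathway names 56 were matched by symbol, 9 by identifier and 13 not at all. The limma package (version 3.58.1, R 4.3.3) was applied to log2(FPKM + 1), with a linear model, eBayes with a trend and two-sided tests. Gene names averaging 0.5 FPKM or more over the libraries of a fit were tested. P is unadjusted and adjusted p is Benjamini-Hochberg over all gene names tested. Weaning was tested in the control litters, in the resveratrol litters, over both in a model of 4 group means and as their difference, and resveratrol was tested at each age. The 8 genes and all lists were chosen with earlier results of these data known. Results for some genes are not reported here. Named were the 8 genes, wider genes with P under 0.05 over both litter sets, the highest gene of each list, and the gene names with the highest Pearson r to the 8. The ketone genes, the neighbour of CPT1A, and in the closing section the wider genes with P under 0.05 for the difference between litter sets and some from single litter sets, were described beyond that rule after their values were seen.

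On simulated data, 97% of 200 genes changed by a log2 fold change of 2 among 12445 had P under 0.05 in the control design, and 5.25% of the others did. Over both litter sets these were 99.5% among 12702 and 5.47%. Settings changed in turn were the pseudocount (0.1), the filter (none, or 5 FPKM), the scaling (median of ratios, quantile) and the trend (none), beside a replicate block, the highest locus per gene name, the Ballgown library-size covariate, identifiers added to their symbols, all 12 libraries in a fit, marker scores as covariates, and leaving out each replicate. The mitochondrial score and the joint omission of W_Res 1 and W_Res 2 were chosen after seeing the data. Marker lists of villus enterocytes, crypts, smooth muscle, lymphocytes, adipocytes, proximal and distal gut and mitochondria were summed per library, and crypt sums lay between 243 and 1393 FPKM and lymphocyte sums between 199 and 369 FPKM.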

Additional observations from a re-analysis of the deposited data

Results flagged for a closer look

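Among the wider pathway genes the weaning effect differed between litter sets at P under 0.05 in the interaction test for 10 of 63 genes tested, beside 13.7% of all gene names. Their adjusted p lay between 0.251 and 0.331, so that none holds after adjustment. Differences are given as log2 fold change in resveratrol litters minus control litters.

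For 6 genes the difference was above 0, as it was at P under 0.05 for 3.31% of all gene names. FABP1 differed by 2.30, from -2.11 in control litters to 0.19 in resveratrol litters. PPARG differed by 1.63, from -0.02 to 1.62. HADH differed by 1.15, from -0.67 to 0.47. NCOA1, a coactivator of nuclear receptors, differed by 1.14, from -0.70 to 0.43. BDH2 differed by 0.98, from -0.38 to 0.59. PDHA1 differed by 0.85, from -1.15 to -0.29.

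For the other 4 genes the difference was below 0, beside 10.4% of all gene names. CPT1C, the brain-type relative of CPT1A, differed by -1.36, from 0.70 in control litters to -0.66 in resveratrol litters. PDK2, a kinase related to PDK4, differed by -1.08, from 0.18 to -0.90. ACACB differed by -0.94, from 0.17 to -0.77. CD36, a fatty acid transporter of the plasma membrane, differed by -0.85, from 0.32 to -0.53. FABP1 is also a marker of the proximal gut. Its own FPKM made up nearly all of the summed proximal markers, as in W_Con 2 (11019 of 11039 FPKM). That sum is therefore no measure of gut position separate from FABP1. The part of gut position in these differences was not tested.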

How the results depend on the processing

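Precision is limited by 3 animals per group and by values without read counts, and detection of differences as small as those of the 8 genes was not tested. Counts below are genes of the 8 at P under 0.05, and other values are log2 fold changes. In control litters (4 genes) the count was 2 with all 12 libraries in the model, 0 with the villus score and 1 with the distal minus proximal score, and 3 to 5 when a library was left out. It was 6 with the Ballgown covariate, which added ACADVL (-0.52) and PDK4 (-0.61), 5 under quantile scaling, which added ACADVL (-0.46), and 3 under median-of-ratios scaling and 3 with the mitochondrial score, both without CPT1A. PPARA turned to 0.19 and 0.65 under the 2 scores. Of 159 single-gene values there, 157 kept their direction.

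In resveratrol litters (0 genes) the count was 1 without W_Res 1 and W_Res 2 together, 1 with the mitochondrial score, and 0 to 2 when a library was left out. Under median-of-ratios scaling CPT2 turned to 0.11, HADHB to 0.17 and PPARA to 0.15, and under quantile scaling PPARA turned to 0.19. With the Ballgown covariate ACADM turned to -0.71, PPARA to 0.93 and PDK4 to 0.14. CPT2 turned to 0.042 with the villus score and to 0.0033 with the distal minus proximal score, and ACADM to -0.0071 with the villus score. Without W_Res 1 and W_Res 2 together CPT1A turned to 0.57, CPT2 to 0.83, ACADM to -0.19, PPARA to 0.28 and PDK4 to 0.17. With the mitochondrial score ACADVL turned to -0.14 and PPARA to 0.085. Leaving out 1 library gave -0.89 to 0.036 for CPT1A, -0.58 to 0.28 for CPT2, -0.22 to 0.26 for ACADM, -0.026 to 0.58 for ACADVL, -0.13 to 0.022 for HADHB and -0.57 to 0.50 for PPARA.

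Over both litter sets (2 genes) the count was 0 under median-of-ratios scaling, 1 with the Ballgown covariate, 1 with the distal minus proximal score, 5 with the mitochondrial score, and 1 to 5 when a library was left out. It stayed at 2 with the villus score, but there HADHB lost P under 0.05 (-0.24) and PDK4 gained it (-1.08). ACADVL turned to 0.038 under median-of-ratios scaling, 0.22 with the distal minus proximal score and 0.26 without W_Res 1 and W_Res 2 together, where CPT1A turned to 0.0076. Leaving out 1 library gave -0.24 to 0.058 for ACADVL. The 439 values of the wider genes named for this comparison kept their direction, and 66 of them lost P under 0.05. These genes were named for their P under 0.05 in this same fit, and the other settings reuse its libraries. Their kept direction was thus largely set by that choice and is no separate support. ACADSB kept it in 5 of 14 other settings and 5 of 12 omissions of a library, ACACB in 6 of 13 and 6 of 12, and TXNIP in 10 of 14 and 5 of 12. PPARG kept it in 11 of 13 and 9 of 12, and its lowest value was 0.19. SLC25A20 kept it in 11 of 14 settings and all 12 omissions, and ranged to -0.30. PDK3 kept it in 10 of 14 and 9 of 12, and ranged to -0.18.

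For the difference between litter sets (0 genes) the count was 1 without a filter, 1 under median-of-ratios scaling, 1 with the distal minus proximal score, 3 without W_Res 1 and W_Res 2 together, and 0 to 1 when a library was left out. For resveratrol at 21 days (0 genes) it was 3 without W_Res 1 and W_Res 2 together, where PDK4 turned to -0.31, and 0 to 1 when a library was left out. At 28 days (1 gene) it was 0 with the Ballgown covariate, where ACADVL turned to -0.0061, 0 with all 12 libraries in the model, and 0 to 1 when a library was left out. The cause of these shifts was not tested.

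The correlations of deviations from group means between libraries with the same replicate number lay between -0.26 and 0.11. These values cannot show whether libraries share a litter, because any shared litters need not follow the replicate numbers and groups are small. No pairing by litter was used in the tests. With a replicate block the counts were 4 in control litters, 0 in resveratrol litters, 2 over both sets, 0 for the difference, 0 at 21 days and 1 at 28 days. The count over all gene names at P under 0.05 was 2236 in control litters and 1210 to 2686 under other settings. It was 1734 in resveratrol litters and 419 to 2274 under other settings. Over both sets it was 2454, with a range of 1248 to 2816, the highest without W_Res 1.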

Other observations

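In the resveratrol litters 11 of the 63 wider genes reached P under 0.05 after weaning, 8 with lower and 3 with higher values, beside 10.8% and 2.54% of all gene names. PPARG (1.62), PPARD (0.54), a relative of PPARA that also drives fatty acid oxidation genes, and PRKAA1 (0.59), a catalytic subunit of AMP-activated kinase, were higher. Among the lower genes were PDP1 (-0.96), a phosphatase that reactivates pyruvate dehydrogenase, ACADL (-0.92), PDK2 (-0.90) and BDH1 (-0.54). The lowest adjusted p of these 11 was 0.311, so that none holds after adjustment over all gene names.

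In control litters ACAA2, the mitochondrial thiolase of medium chains, was at a log2 fold change of -0.74 (adjusted p = 0.173), and PDHX, a structural part of the pyruvate dehydrogenase complex, at -0.44 (adjusted p = 0.255). Both sets of control libraries lay apart for these genes, as they did with lower weaned values for 12.7% of all gene names. They were chosen for mention after their values were seen.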
